A study of Mus musculus with 4 samples.

Results

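This report describes 10 genes that mark macrophages, chosen by symbol from 17485 genes measured in bulk RNA of whole mouse hearts. All 10 were in the table: Cd68, Lyz2, Adgre1, Csf1r, Cd163, Mrc1, Lyve1, Timd4, Cx3cr1 and Ccr2. Complement genes were left out of the set. The groups were 2 wild-type libraries (WT) and 2 libraries from mice that lack Klf9 (Klf9 KO), a zinc finger transcription factor. All 4 samples were labelled as male hearts, the mice were 8 weeks old, and the treatment is given only as random food and drink. No label names the strain, the way Klf9 was deleted or the animals behind a library. The limma p-values below therefore reflect how far libraries of 1 group lie apart, and that spread could be technical. The DEGseq and Poisson values quoted below are the authors' own and need not reflect it. The study's title and design ask how Klf9 bears on mitochondria of cardiac tissue, and the comparison is Klf9 KO against WT.

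Macrophages of the adult heart come in 2 broad kinds. Resident macrophages settle before or around birth, renew themselves in the tissue, clear debris and damaged mitochondria from cardiomyocytes, and are known by LYVE1, TIMD4, CD163 and the mannose receptor MRC1, without the chemokine receptor CCR2. Monocyte-derived macrophages enter from blood by way of CCR2, which binds CCL2 and related chemokines. Both kinds depend on the receptor CSF1R, whose ligands are CSF1 and IL-34, and both make the lysosomal protein CD68, the surface protein F4/80 (Adgre1) and lysozyme (Lyz2).

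The table held ratios between libraries, from which an expression value per library was recovered on a scale whose unit was not given. Klf9 stood at 74.9 and 58.8 in WT and at 2.66 and 1.99 in Klf9 KO (log2 fold change -4.35 ± 0.20, SE, limma adjusted p = 3.46e-06), low in Klf9 KO as the labels have it. The Y-linked gene Kdm5d was at 3.42 and 3.97 in WT, at 4.01 in Klf9 KO replicate 1 and at 0.01, the smallest value of the scale, in Klf9 KO replicate 2, which goes against the male label of that library. The groups also differed far beyond Klf9: Tnni1, a troponin of the heart before birth, was at 0.16 and 0.01 in WT and at 656 and 994 in Klf9 KO. Esr1, the estrogen receptor alpha, was at 3326 and 2726 in WT and at 0.09 and 0.03 in Klf9 KO. Whether these differences bear on the macrophage genes was not tested, and within this design they cannot be told apart from the loss of Klf9. For the macrophage genes, values without single libraries are given where a call is lost or gained.

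Most macrophage markers stood lower in Klf9 KO hearts than in WT, and Cx3cr1 stood higher. In 9 of the 10 genes both Klf9 KO libraries lay below both WT libraries, and in Cx3cr1 both lay above. Across the 16152 genes with all 4 ratios, 28.2% had the first pattern and 43.6% the second. In a limma fit over all genes, on the log2 of value + 1 and with p adjusted after Benjamini and Hochberg and called below 0.05, 6 of the 8 markers tested were lower, 1 was higher and Csf1r did not pass, where 17.0% of the 12135 genes tested were lower and 27.7% higher. Timd4 and Ccr2 were too low to be tested, since a gene needed a value of at least 1 in 2 libraries. Cd163 passed that filter through its WT libraries alone. Cx3cr1 reached 1 in 3 libraries, with WT at 0.65 and 1.17, so its WT libraries alone would not have passed it. It could thus enter only with the help of Klf9 KO, where it is high. The median log2 fold change of the 8 was -1.21, beside 0.12 for all genes tested. In bulk tissue, fewer macrophages and less of these RNAs per macrophage cannot be told apart.

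**Figure D1:**
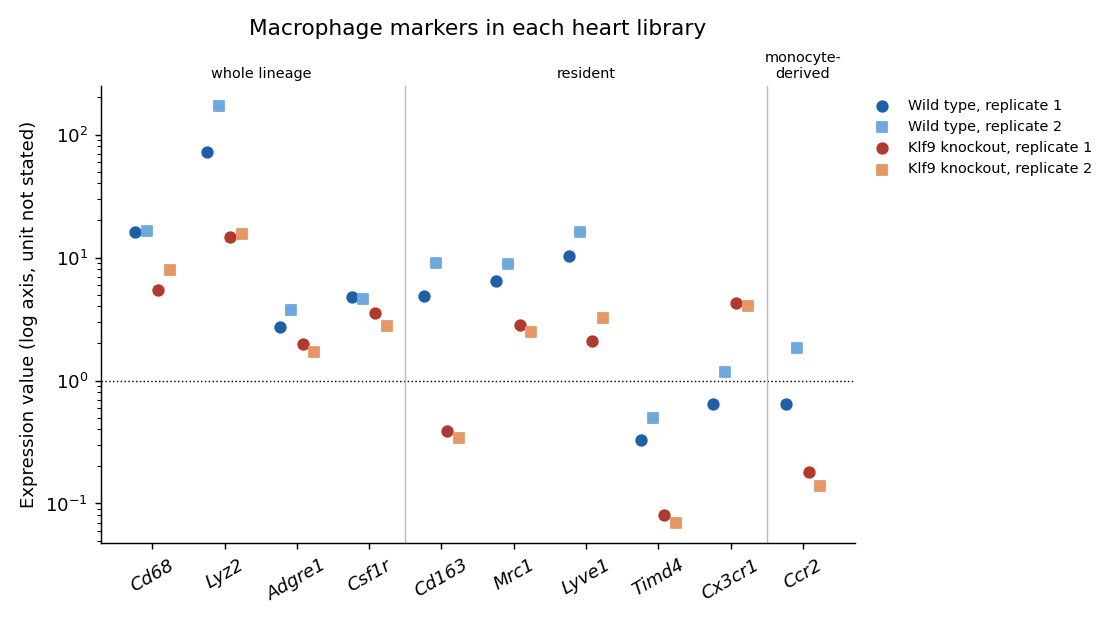
Expression value (log axis, unit not stated) of the 10 macrophage markers in each of the 4 libraries, as points with no error bar, with wild type in blue and Klf9 knockout in red and orange; the dotted line marks a value of 1. In every gene but Cx3cr1 the 2 knockout points lie below the 2 wild-type points.

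Among the markers of the whole lineage, Lyz2 fell the most. Lyz2 (Entrez 17105), an enzyme that breaks bacterial cell walls, stood at 71.9 and 169 in WT and at 14.8 and 15.5 in Klf9 KO. The knockout libraries were close together, whereas the WT libraries differed by a factor of 2.35. Its log2 fold change was -2.79 ± 0.34 (SE, limma adjusted p = 0.000317). Lyz1, a close paralog that can share reads with it, fell likewise, from 7.38 and 19.7 to 1.26 and 0.85. The summed value of 11 neutrophil genes went from 24.7 and 23.0 in WT to 6.03 and 5.51 in Klf9 KO. The part of neutrophils in the Lyz2 result was not tested.

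Cd68 (Entrez 12514), a glycoprotein of lysosomes, stood at 16.03 and 16.3 in WT and at 5.45 and 7.91 in Klf9 KO. Here the WT libraries were nearly equal and the knockout libraries differed by a factor of 1.45. The log2 fold change was -1.18 ± 0.20 (SE, limma adjusted p = 0.00164).

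Adgre1 and Csf1r had the smallest ratios between the groups. Adgre1 (Entrez 13733), the gene of F4/80, stood at 2.70 and 3.76 in WT and at 1.99 and 1.72 in Klf9 KO (log2 fold change -0.56 ± 0.19, SE, limma adjusted p = 0.0374). That call was lost without WT replicate 2 (-0.38, adjusted p = 0.083), without Klf9 KO replicate 1 (-0.63, adjusted p = 0.114) and without Klf9 KO replicate 2 (-0.49, adjusted p = 0.261). Csf1r (Entrez 12978), the growth factor receptor on which macrophage survival depends, stood at 4.76 and 4.57 in WT and at 3.54 and 2.78 in Klf9 KO. The groups did not overlap, and the log2 fold change of -0.45 ± 0.18 (SE) did not pass (limma adjusted p = 0.0647). It passed after RLE scaling of the libraries (-0.57, limma adjusted p = 0.0302) and without either WT library in turn.

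The levels of the markers are less certain than their ratios, that of Csf1r most of those checked. Ratios do not show a whole-number factor that divides a gene's value in all 4 libraries, so recovery drops it. The read numbers implied by the authors' deposited DEGseq p-values were therefore set against value times transcript length. Over 6593 genes this quotient, scaled to a median of 1, lay between 0.92 and 1.11 for the middle 50% of genes, against 0.62 and 1.51 when length was left out, so the values behave as a length-scaled unit. Relative to 200 genes of like ratio, Csf1r stood at 2.47, above the 95th percentile of 1.90, while the other 8 markers with a usable p-value lay between 0.67 and 1.47. The level of Lyz2 could not be checked in this way. With the Csf1r values taken times 2 or times 3, its log2 fold change was -0.50 or -0.53 and passed (limma adjusted p = 0.0456 and 0.0434).

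Of the 4 resident markers other than Cx3cr1, Cd163 had the largest ratio. Cd163 (Entrez 93671), the scavenger receptor for haptoglobin and hemoglobin, stood at 4.88 and 9.01 in WT and at 0.39 and 0.34 in Klf9 KO. Its knockout mean was 19.0-fold below its WT mean, and its log2 fold change on the scale of value + 1 was -2.49 ± 0.24 (SE, limma adjusted p = 9.64e-05).

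Lyve1 (Entrez 114332), a hyaluronan receptor that resident macrophages share with lymphatic endothelium, stood at 10.3 and 16.1 in WT and at 2.10 and 3.23 in Klf9 KO. Replicate 2 was the higher library in each group. The log2 fold change was -1.94 ± 0.24 (SE, limma adjusted p = 0.000343). Of 8 markers of lymphatic endothelium, 2 were lower (Ccl21a, from 18.6 and 33.7 to 10.5 and 11.1, and Mmrn1, from 1.37 and 2.45 to 0.67 and 0.62) and 4 were higher, beside 17.0% and 27.7% of all genes tested. Mmrn1 passed the filter through WT alone. The number higher was 1 without Klf9 KO replicate 1, and 2 without Klf9 KO replicate 2 or without the filter. Prox1, the transcription factor that defines lymphatic identity and is also made by cardiomyocytes, was among those higher, from 21.4 and 12.7 to 34.2 and 29.7 (0.91 ± 0.25, limma adjusted p = 0.0159). Its call was lost without Klf9 KO replicate 1 and with no filter (limma adjusted p = 0.0608). The summed value of that list was 78.4 to 79.6 in WT and 95.3 to 111 in Klf9 KO. The part of lymphatic vessels in the Lyve1 result was not tested.

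Mrc1 (Entrez 17533), the mannose receptor, stood at 6.50 and 8.83 in WT and at 2.85 and 2.47 in Klf9 KO. The log2 fold change was -1.23 ± 0.19 (SE, limma adjusted p = 0.00108). Timd4 (Entrez 276891), a receptor for phosphatidylserine on dying cells, was the lowest of the markers, at 0.33 and 0.50 in WT and at 0.08 and 0.07 in Klf9 KO. With no filter on low values its log2 fold change was -0.39 ± 0.08 (SE, limma adjusted p = 0.0199), a size that the added 1 makes small, since the WT mean was 5.53 times the knockout mean.

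Ccr2 (Entrez 12772), the receptor of the monocyte-derived kind, stood at 0.65 and 1.84 in WT and at 0.18 and 0.14 in Klf9 KO. The WT libraries differed by a factor of 2.83, the widest gap between replicates among the 10 genes, and lay above both knockout libraries. With no filter its log2 fold change was -0.90 ± 0.26 (SE) and did not pass (limma adjusted p = 0.0574).

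Cx3cr1 (Entrez 13051), the receptor for fractalkine on resident macrophages, patrolling monocytes and microglia, was the marker that rose. It stood at 0.65 and 1.17 in WT and at 4.30 and 4.03 in Klf9 KO, so that its knockout mean was 4.58 times its WT mean. The log2 fold change was 1.45 ± 0.19 (SE, limma adjusted p = 0.000406), and it passed without each library in turn. CX3CR1 is also made by natural killer cells and some T cells. None of 7 natural killer markers was high enough to be tested, with Ncr1 at 0.06 or less in all 4 libraries, and their summed value was 0.23 and 1.26 in WT and 0.31 and 0.14 in Klf9 KO. The summed value of 9 T cell markers was 1.35 and 0.81 in WT and 2.71 and 1.42 in Klf9 KO. The part of these cells in the Cx3cr1 result was not tested.

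The authors' deposited table gave these pairwise log2 ratios, Klf9 KO over WT, with no pseudocount. In the authors' deposited table Cd163 ranged from -4.73 to -3.65 over the 4 pairs of libraries, Lyz2 from -3.52 to -2.22, Ccr2 from -3.72 to -1.85, Lyve1 from -2.94 to -1.67 and Timd4 from -2.84 to -2.04. Mrc1 ranged from -1.84 to -1.19, Cd68 from -1.58 to -1.02, Adgre1 from -1.13 to -0.44 and Csf1r from -0.78 to -0.37 in the authors' deposited table. Cx3cr1 ranged from 1.78 to 2.73 in the authors' deposited table. Ratios against WT replicate 2 were the more negative ones in Lyz2, Ccr2, Cd163, Timd4, Mrc1, Lyve1, Adgre1 and, by little, Cd68. They were the lower positive ones in Cx3cr1. In 9 of the 10 genes WT replicate 2 was the higher WT library, by factors up to 2.83, where the ratio of the WT libraries had a median of 1.02 and a 5th to 95th percentile of 0.60 to 1.76 over all genes tested. The knockout libraries differed less, with ratios of replicate 2 to replicate 1 from 0.78 to 1.54 in the 10 genes.

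**Figure D2:**
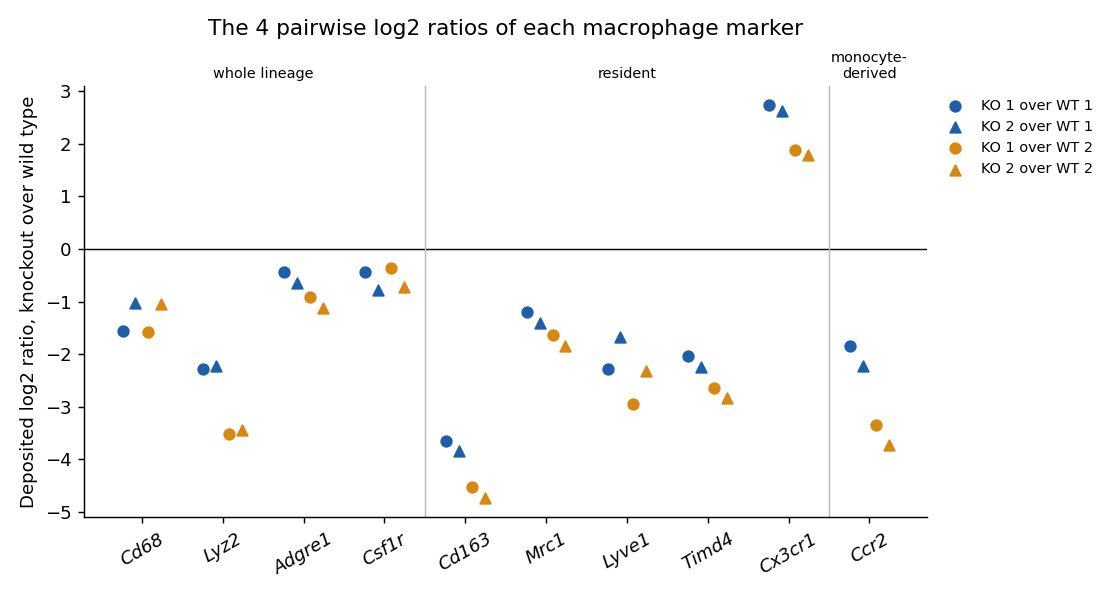
Deposited log2 ratio, knockout over wild type, of each macrophage marker for each of the 4 pairs of libraries, with pairs that use wild-type replicate 1 in blue and replicate 2 in orange and no error bars. All 4 points are below 0 in 9 genes and above 0 in Cx3cr1, from 1.78 to 2.73.

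The DEGseq comparison of the groups in the authors' deposited table, at q below 0.001 and a log2 ratio of at least 1 in size, had 7 of the 10 markers lower and 1 higher, beside 8.77% and 14.3% of the 16254 genes it covered. Adgre1 (-0.74) and Csf1r (-0.57) were under that size in the authors' deposited table. Timd4 had a q of 3.63e-05 in the authors' deposited table. For the pair of WT replicate 1 and Klf9 KO replicate 1, the Poisson false discovery rate of Adgre1 in the authors' deposited table was 0.0861. Such a rate compares 1 library with 1 library, so the spread between replicates does not enter it. How far that spread enters the DEGseq q-values was not examined.

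The order of the markers by level differed most at Cx3cr1 and Cd163. In WT the order of means was Lyz2 (120.5), Cd68 (16.2), Lyve1 (13.2), Mrc1 (7.67), Cd163 (6.95), Csf1r (4.67), Adgre1 (3.23), Ccr2 (1.25), Cx3cr1 (0.91) and Timd4 (0.415). The libraries of Cd68 and Lyve1, of Mrc1 and Cd163, and of Ccr2 and Cx3cr1 overlapped, so those neighbours do not differ beyond their spread. In Klf9 KO the order was Lyz2 (15.1), Cd68 (6.68), Cx3cr1 (4.17), Csf1r (3.16), Lyve1 and Mrc1 (both near 2.66), Adgre1 (1.86), Cd163 (0.365), Ccr2 (0.16) and Timd4 (0.075). There Csf1r, Lyve1 and Mrc1 overlapped. The place of Csf1r in either order rests on its uncertain level.

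Resident and monocyte-derived markers were compared by their ratio within each library, which no scaling between libraries can move. The log2 ratio of Lyve1 to Ccr2 was 3.98 and 3.13 in WT and 3.54 and 4.53 in Klf9 KO, and the groups overlapped (difference 0.48, exact two-sided permutation p = 0.667). That of Timd4 to Ccr2 overlapped too, at -0.98 and -1.88 against -1.17 and -1.0. Cd163 was lower relative to Ccr2 in Klf9 KO (1.12 and 1.28, against 2.91 and 2.29 in WT) and Mrc1 was higher relative to it (3.98 and 4.14, against 3.32 and 2.26). Relative to Ccr2, Cx3cr1 stood at 0.00 and -0.65 in WT and at 4.58 and 4.85 in Klf9 KO. Over all 16151 genes, 93.7% had ratios to Ccr2 that were higher in Klf9 KO without overlap, as Mrc1 and Cx3cr1 did, and 1.19% had lower ones, as Cd163 did. Ccr2 itself was low in Klf9 KO, at 0.18 and 0.14, so a higher ratio to it does not set a marker apart from most genes. The lower ratio of Cd163 was the rarer pattern and describes these libraries only.

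Against Csf1r, 7 of the other 9 markers had lower ratios in Klf9 KO without overlap and 1 had higher ones, beside 11.3% and 63.7% of all 16151 genes. Csf1r itself stood lower in Klf9 KO. The log2 ratio to Csf1r differed, Klf9 KO minus WT, by -3.61 for Cd163, by -2.30 for Lyz2, by -2.21 for Ccr2, by -1.87 for Timd4, by -1.73 for Lyve1, by -0.94 for Mrc1 and by -0.73 for Cd68. It differed by 2.83 for Cx3cr1 and by -0.21, with overlap, for Adgre1. In all, 14 such pairs of genes were compared. With 2 libraries against 2 an exact two-sided permutation test cannot go below p = 0.333 (0.424 adjusted over the 14 pairs), so none of these differences can pass a threshold.

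**Figure D3:**
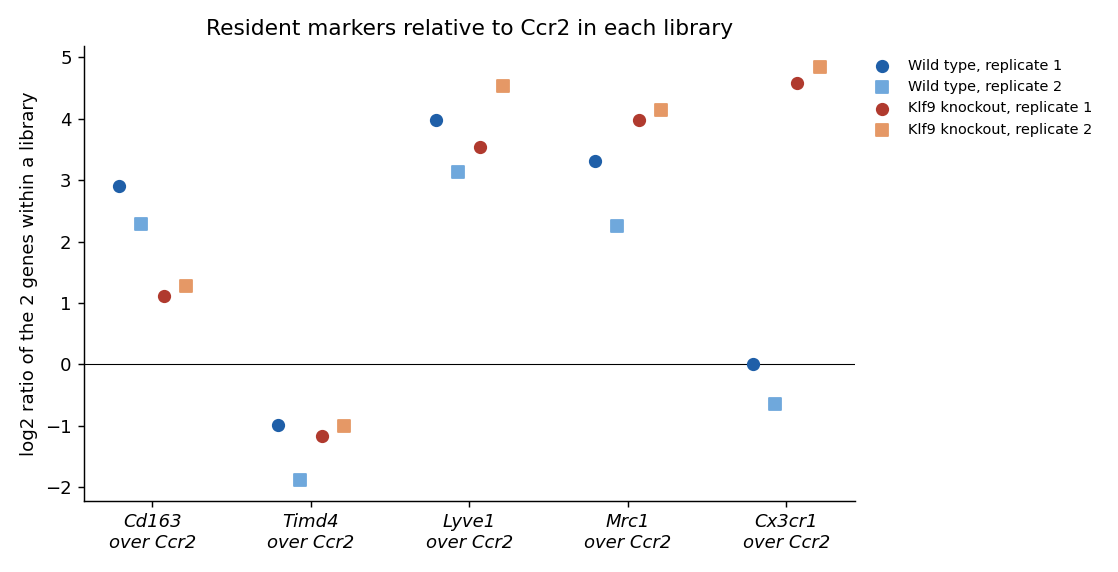
Log2 ratio to Ccr2 within each library of 5 markers listed as resident, 1 point per library and no error bars. Wild type is in blue and knockout in red and orange. Of these markers, Cx3cr1 is also found on patrolling monocytes. Points of the groups overlap for Timd4 and Lyve1, and Cx3cr1 moves from 0 or below in wild type to 4.58 and 4.85 in the knockout.

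The stretch before the start site is shown for 3 markers because Cd68 and Mrc1 fell, Cx3cr1 rose, and their windows hold the letters that were searched. RefSeq windows (GRCm38.p6) were matched for 7 of the 10 markers: all but Adgre1, Csf1r and Lyve1. The 250 bases before the start were searched on both strands for GAGGAA, the core bound by PU.1, the factor that sets macrophage identity. They were also searched for GGGCGG, the GC box. The third motif was CCACCC, known as the CACCC box, and Krüppel-like factors bind elements of these latter kinds. The sequences run 5′ to 3′ on the gene's strand, and capitals mark matches on either strand.
Cd68, chr11:69666171-69666420, minus strand: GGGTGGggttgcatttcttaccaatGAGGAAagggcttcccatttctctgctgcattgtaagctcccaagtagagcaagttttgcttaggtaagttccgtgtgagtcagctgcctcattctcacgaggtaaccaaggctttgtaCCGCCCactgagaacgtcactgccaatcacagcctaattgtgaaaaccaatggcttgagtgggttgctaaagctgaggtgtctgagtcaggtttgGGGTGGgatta
Mrc1, chr2:14229164-14229413, plus strand: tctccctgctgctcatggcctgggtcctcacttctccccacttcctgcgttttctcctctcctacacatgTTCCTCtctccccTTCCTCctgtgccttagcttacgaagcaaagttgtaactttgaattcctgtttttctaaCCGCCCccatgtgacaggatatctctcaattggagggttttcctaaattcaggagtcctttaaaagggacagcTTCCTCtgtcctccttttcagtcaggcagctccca
Cx3cr1, chr9:120068297-120068546, minus strand: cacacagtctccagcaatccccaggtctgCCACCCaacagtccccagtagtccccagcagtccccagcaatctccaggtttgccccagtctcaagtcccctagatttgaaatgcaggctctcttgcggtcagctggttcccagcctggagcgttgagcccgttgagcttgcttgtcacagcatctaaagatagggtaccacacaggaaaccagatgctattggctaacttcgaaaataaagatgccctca

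The PU.1 core letters were in 2 of the 7 windows, 3 times in Mrc1 and 1 time in Cd68, and in 22.8% of the 17206 windows of genes in the table. The GC box was in 2 of the 7 (Cd68 and Mrc1) and in 50.4% of all windows. The CACCC box was in 3 of the 7 (Cd68, Cx3cr1 and Timd4) and in 33.1% of all windows. No match of any of the 3 was in the windows of Lyz2, Cd163 and Ccr2. A match describes letters only, and the motifs do not overlap each other in these windows.

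Other genes of the lineage were read from lists chosen by function. Over all genes tested 17.0% were lower and 27.7% higher, and the counts of these lists are to be read beside those shares. Of 18 further genes of resident macrophages 15 were tested, of which limma called 11 lower and 0 higher. Their median log2 fold change was -1.16. Cbr2, a carbonyl reductase, went from 33.2 and 34.8 to 1.81 and 1.51 (-3.72 ± 0.17, limma adjusted p = 3.46e-06), and Folr2, the folate receptor beta, from 12.3 and 14.02 to 2.66 and 2.5 (-1.98 ± 0.17). The complement receptor Vsig4 was at 2.0 and 4.2 in WT and at the smallest value, 0.01, in both Klf9 KO libraries. Vsig4 was named after its values were seen. The most abundant of the list, Gas6 (62.2 and 59.0 against 67.9 and 79.0) and the Fc receptor Fcgrt (46.5 and 42.3 against 35.9 and 33.1), did not pass and are also made by other cells. Fcgrt passed after RLE scaling (-0.50, adjusted p = 0.0498) and without WT replicate 2. Of the 15 genes, 5 passed the filter through WT alone, Vsig4 among them, and all 5 were called lower.

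Of 20 further genes of monocytes and monocyte-derived macrophages 10 were tested, of which 6 were lower and 2 higher. Their median was -1.12. With no filter the median of all 20 was -0.33, and that of all 18 genes of the resident list was -0.99. S100a4 went from 6.55 and 7.89 to 1.43 and 1.37 (-1.77 ± 0.17, limma adjusted p = 0.0001), and Hp, haptoglobin, from 2.13 and 3.04 to 0.05 and 0.15. Hp passed the filter through WT alone and Itgal through Klf9 KO alone, so each could enter only through the group where it is high. The matrix proteoglycan Vcan (0.81 ± 0.19) and the integrin Itgal (0.52 ± 0.17, limma adjusted p = 0.0311) were higher. The call of Itgal was lost after RLE scaling (limma adjusted p = 0.0604) and with no filter (limma adjusted p = 0.0631). It was also lost without WT replicate 2 and without either Klf9 KO library, and that of Vcan without Klf9 KO replicate 2. Ly6c1 (213 and 389 against 62.3 and 54.8) and Ace (44.2 and 32.5 against 11.7 and 9.28) were lower and are abundant in endothelium, and Ly6c1 has a near-identical neighbour in Ly6c2. Whether the resident or the monocyte list moved more was not tested.

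Of 29 further genes found across macrophages 21 were tested, of which 14 were lower and 2 higher. Their median was -0.86, and -0.45 without WT replicate 2. Of the 21 genes, 5 passed the filter through WT alone, Pirb and Fcgr2b among them, and all 5 were called lower. The inhibitory receptors Pirb (7.34 and 7.05 against 0.53 and 0.65, -2.37 ± 0.17) and Fcgr2b (7.26 and 13.8 against 0.61 and 0.97, -2.64 ± 0.27) were lower. Pirb belongs to a family of near-identical genes. The oxidase subunit Cyba (27.4 and 29.4 against 49.1 and 66.6) and the matrix protein Emilin2 (14.97 and 10.6 against 68.7 and 76.9) were higher, and other cells make them too. The call of Cyba was lost without Klf9 KO replicate 2 (adjusted p = 0.124). Because of Cyba and Emilin2 the summed value of this list was 178 and 215 in WT and 205 and 227 in Klf9 KO.

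All 7 genes measured from a list of ligands of CSF1R, CCR2 and CX3CR1 were lower in Klf9 KO hearts, with a median of -1.05. Of the 7, 4 passed the filter through WT alone. The list includes Ccl8, and whether mouse CCL8 acts on CCR2 was not tested. Csf1, the main growth factor of macrophages, went from 22.6 and 20.3 to 10.7 and 9.07 (-1.05 ± 0.18, limma adjusted p = 0.0018), and Cx3cl1, fractalkine, from 12.1 and 6.72 to 2.61 and 2.90 (-1.42 ± 0.25, limma adjusted p = 0.00186). The ligand of CX3CR1 thus fell where the receptor rose. Ccl8, a chemokine that resident macrophages make, was at 5.87 and 10.95 in WT and at the smallest value, 0.01, in both Klf9 KO libraries, and Ccl12 went from 1.31 and 1.88 to 0.20 and 0.38. Without WT replicate 2 or without Klf9 KO replicate 2, 6 of the 7 were lower, and 5 with no filter.

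Transcription factors of the lineage went both ways. Of 13, 11 were tested, 7 were lower and 2 higher. Their median was -0.54, but 0.17 with a minimum value of 5, where 3 of 7 were lower and 2 higher. With no filter 4 were lower. Nr1h3, the oxysterol receptor LXR alpha, went from 12.7 and 14.2 to 1.11 and 0.83 (-2.88 ± 0.18, limma adjusted p = 1.17e-05), and Cebpb from 22.8 and 17.0 to 4.98 and 3.85 (-1.94 ± 0.20). Irf8, a factor of the monocyte and macrophage lineage, rose from 2.13 and 2.24 to 6.01 and 7.70 (1.29 ± 0.18, limma adjusted p = 0.000627), and Nfatc2 from 5.61 and 4.08 to 10.9 and 11.1 (1.05 ± 0.19). Id3 did not pass (9.74 and 10.4 against 13.4 and 15.3), but did without either WT library in turn. The number of lower factors was 4 without Klf9 KO replicate 1 and 3 without Klf9 KO replicate 2.

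**Figure D4:**
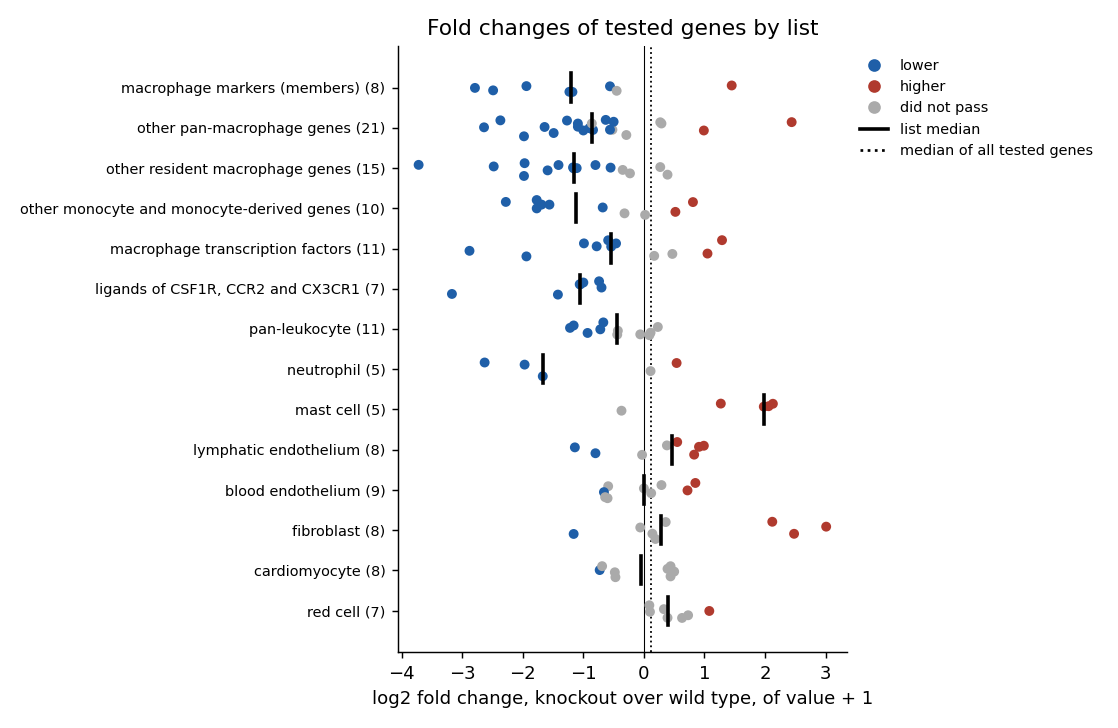
Log2 fold change (knockout over wild type, of value + 1) of each tested gene in 14 lists, 1 point per gene, coloured by whether it was lower, higher or did not pass (limma, adjusted p below 0.05), with list medians as bars, the median of all tested genes as a dotted line, and the number tested in parentheses; vertical scatter carries no meaning. The macrophage markers have a median of -1.21 and the mast cell genes one of 1.98.

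Markers of other cells moved beside the macrophage genes, and their part in the results was not tested. Their counts stand beside 17.0% lower and 27.7% higher over all genes tested. Of 11 genes shared by white blood cells, 5 were lower and 0 higher. Their median was -0.44, and the number lower was 8 without WT replicate 1. Fcer1g (22.8 and 34.1 against 12.1 and 10.7) and Cd53 (1.84 and 4.0 against 0.55 and 0.83) were lower, while Arhgdib (21.03 and 27.6 against 23.2 and 23.0) did not pass. Of the 11 genes, 2 passed the filter through WT alone, Cd53 among them, and both were called lower. Of 5 neutrophil genes tested 3 were lower and 1 higher, of which S100a8 and Retnlg passed the filter through WT alone. S100a9 and S100a8 were the most abundant, and the summed value of that list was 23.0 to 24.7 in WT and 5.51 to 6.03 in Klf9 KO. Cxcr2, the higher one (0.54 ± 0.16), lost its call under RLE scaling (adjusted p = 0.0553) and without either Klf9 KO library. Of 5 mast cell genes tested, Hdc (2.25 and 1.82 against 1.34 and 1.34, -0.37 ± 0.16) did not pass, with both Klf9 KO libraries below both WT libraries. Under RLE scaling 1 gene of that list was lower. The 4 genes called higher included Kit (0.89 and 0.65 against 6.30 and 7.13, 2.13 ± 0.17) and Tpsb2 (0.31 and 0.63 against 3.39 and 7.48), and all 4 passed the filter through Klf9 KO alone. Without WT replicate 1 the number was 2, and Tpsb2 was not called (adjusted p = 0.0573). The B cell list summed to 2.56 and 1.25 in WT and to 5.18 and 4.85 in Klf9 KO, with Cd79a at 0.76 and 0.09 against 1.43 and 0.69 and Blk, the single gene tested, higher (0.67 ± 0.17). Blk passed the filter through Klf9 KO alone. Among dendritic cell genes Zbtb46 (-0.21) and Clec9a (-0.29) did not pass.

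The tissue itself carried the markers of heart in all libraries. The counts below stand beside the shares of all genes tested, 17.0% lower and 27.7% higher. Of 8 cardiomyocyte genes 7 did not pass and Tnni3 was lower (-0.73 ± 0.26), with Myl2 and Myh6 the most abundant. The call of Tnni3 was lost without either Klf9 KO library. It was also lost with no filter (limma adjusted p = 0.0762) and with non-robust moderation (limma adjusted p = 0.0599). Without WT replicate 1, 3 of the 8 were lower and 2 higher, and without WT replicate 2, 2 were lower and 2 higher. Of 9 genes of blood endothelium 1 was lower and 2 were higher. Without either Klf9 KO library 0 were lower and 0 higher, without WT replicate 1 the number lower was 3, without WT replicate 2 it was 2 with 3 higher, and with a replicate block it was 4. Of 8 fibroblast genes 1 was lower (Dcn), 3 were higher (Tcf21, Col1a1 and Col1a2) and 4 did not pass. The call of Dcn was lost without Klf9 KO replicate 2 and with no filter (limma adjusted p = 0.0599). The summed value of 7 red cell genes was 10830 to 11080 in WT and 12520 to 18950 in Klf9 KO, with Slc4a1 the single gene called higher (1.08 ± 0.26), which it was not without a filter (adjusted p = 0.0506). The number higher was 3 without WT replicate 1 and with a replicate block, where Hba-a1 and Hba-a2 passed too.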

How the data were processed

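The libraries, 2 WT and 2 Klf9 KO, were made from total RNA of hearts and were grouped and numbered by their titles. The authors deposited 1 table with log2 ratios for the pairs of libraries and for the groups. It also holds p-values, false discovery rates and q-values from a Poisson test and from DEGseq, per the file headers. One deposited false discovery rate column was treated as a score. Aligner, build, unit and depth: not given in the sources used here. No counting interval is therefore given.

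Values per library were recovered from the ratios by continued fractions as the smallest 4 whole numbers that give them, read in steps of 0.01 (an assumption). Ratios of 16152 genes were additive to within 9.9e-14 and all 17485 genes were resolved. When ratios of 2000 genes were shifted by about 1e-06, 0% gave whole numbers below 2000000, against 100% as deposited. The smallest value, 0.01, can stand for 0.

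The filter kept genes that reached 1 in 2 or more libraries. They were fitted with limma 3.58.1 in R 4.3.3 (trend, robust) on log2(value + 1), with group as the only term. The added 1 makes changes of low genes look smaller. The median log2 fold change of all genes went from 0.12 to -0.02 after RLE scaling, so changes near 0.1 have no direction.

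The members and the gene lists were chosen with earlier results of these data known. Named were all 10 members and, from each list, up to 2 called genes with the lowest p in each direction and the 2 with the highest mean. Tnni1, Esr1, Kdm5d, Lyz1, Ncr1, Retnlg, Hdc and Vsig4 were chosen after their values were seen. Genes were matched by symbol. The alternatives were 2 other scalings (RLE, upper quartile), dropping the filter, raising it to 5, a pseudocount of 0.1, non-robust moderation, a replicate block and leaving out each library. Those on the level of Csf1r and on the other lists were added after the data were seen. Transcript lengths came from GENCODE. Python 3.11.15, numpy 2.4.6, pandas 2.3.3, scipy 1.17.1 and matplotlib 3.10.9 were used.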

Additional observations from a re-analysis of the deposited data

How the results depend on the processing

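The number of macrophage markers that were lower was 6 with all libraries, 7 after RLE scaling, 6 after upper quartile scaling and 4 of 4 tested with a minimum of 5, and ranged from 5 to 7 when each library was left out. With that minimum 0 markers were higher and the median of the markers was -1.59, because Cx3cr1 and 3 others were no longer tested. The median otherwise stayed between -1.38 and -1.04, and between -1.31 and -1.10 when each library was left out. Over all genes, leaving out each library moved the number higher between 1859 and 4327 and the number lower between 1100 and 3261, and RLE scaling gave 2610 higher and 2633 lower against 3367 and 2061. Lyz2, Cd68, Cd163, Mrc1, Lyve1 and Cx3cr1 kept direction and call under every alternative that tested them, while Adgre1 was lost under 4 (without filter adjusted p = 0.0734) and Csf1r was gained under 5. The difference in the log2 ratio of Lyve1 to Ccr2 was -0.04 with a pseudocount of 0.1 and ranged from -0.01 to 0.97 when each library was left out. The replicate numbers are shared by the groups but nothing says that they pair animals, and differences between replicates correlated at -0.035 across genes. With a replicate block 3514 genes were higher and 2275 lower, 6 markers were lower and 1 higher, with a median of -1.21. With a library left out, the lone sample of its group is assumed to vary like the other group. Depth is unknown, so the low values of Timd4 and Ccr2 carry no counting error here.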
